A study of Sus scrofa with 6 samples.

Results

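The genes described here encode parts of the TGF-beta, BMP and Wnt pathways: ligands, secreted inhibitors, receptors, and the proteins that carry the signal to the nucleus. They were chosen by symbol alone, from probe sets to which the platform annotation gave exactly 1 symbol. The rule took LEF1, NODAL, LEFTY2, GSC, CTNNB1, AXIN1 and AXIN2, and every symbol starting with TGFB (other than TGFBI), BMP, GDF, INHB, ACVR, SMAD, FST, WNT, FZD, SFRP, DKK or TCF7. It found 38 genes of the 6765 symbols on the array, read by 64 of 23999 probe sets. A gene with several probe sets is represented by the one with the highest mean over the 6 arrays. No probe set had NODAL, LEFTY2, AXIN1 or AXIN2 as its only symbol, so these genes were not analysed here.

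Expression was measured in 6 pig (Sus scrofa) samples on the Affymetrix Pig Genome Array, 1 array per sample. The 2 somatic samples were PEF, fibroblasts from an embryo, and PAFSC, stem cells from amniotic fluid. The 4 induced pluripotent stem (iPS) lines differed in their labelled stage-specific embryonic antigens (SSEA), which are surface glycans: PS24 carried SSEA1, SSEA3 and SSEA4, 30AC5 carried SSEA1, and iPF4-2 and iPSCs-w carried SSEA3 and SSEA4. All cells were cultured for 72 h in DMEM with 15% serum, and the iPS lines also shared a layer of growth-arrested mouse fibroblasts, so their RNA may hold some from those feeders. The labels name no breed, animal, reprogramming factor or promoter, and do not say whether any array repeats a culture. The p-values below therefore measure the spread between these samples, which may in part be technical.

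TGF-beta, activin and nodal ligands bind pairs of serine/threonine kinase receptors that phosphorylate SMAD2 and SMAD3, whereas BMPs act through SMAD1 and its close relatives; both routes share SMAD4. Wnt ligands bind Frizzled receptors and stabilise beta-catenin, which then activates genes together with TCF and LEF factors, while DKK and SFRP proteins hold the pathway back outside the cell. In cultured pluripotent cells activin and nodal signalling helps to keep the undifferentiated state, and in fibroblasts TGF-beta is known for driving matrix production.

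Values are on a log2 scale and measured from a zero that belongs to each probe set, whose definition is not given in the sources used here. Arrays can be compared within a probe set, but a level cannot be compared between genes, and 0 does not mean absence. The PAFSC array stood apart: its median over all probe sets was 0.70 against -0.06 to 0.05 on the others, and its SD was 2.01 against 0.61 to 0.81. In the array's control genes (GAPDH, actin and EF1A) the value of the 5' probe set minus that of the 3' probe set averaged 1.90 in PAFSC, -1.90 in PS24 and -0.03 to 0.19 on the other arrays. In PAFSC the 3 genes differed, at 3.66 for GAPDH, 2.72 for actin and -0.70 for EF1A, whereas in PS24 all 3 were between -2.03 and -1.70. The labelled cell types were checked on marker genes. The median of 14 measured fibroblast markers was 3.73 in PEF, 2.08 in PAFSC and -0.72 to 0.07 in the iPS lines. The median of 4 measured pluripotency markers (POU5F1, DNMT3B, ZFP42 and DPPA5) was 1.75 in iPF4-2 and 2.26 in iPSCs-w, but -0.33 in PS24 and -0.37 in 30AC5, against -0.62 in PEF and 0.59 in PAFSC, so the median of the SSEA1-labelled lines lay between those of the somatic samples.

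**Figure D1:**
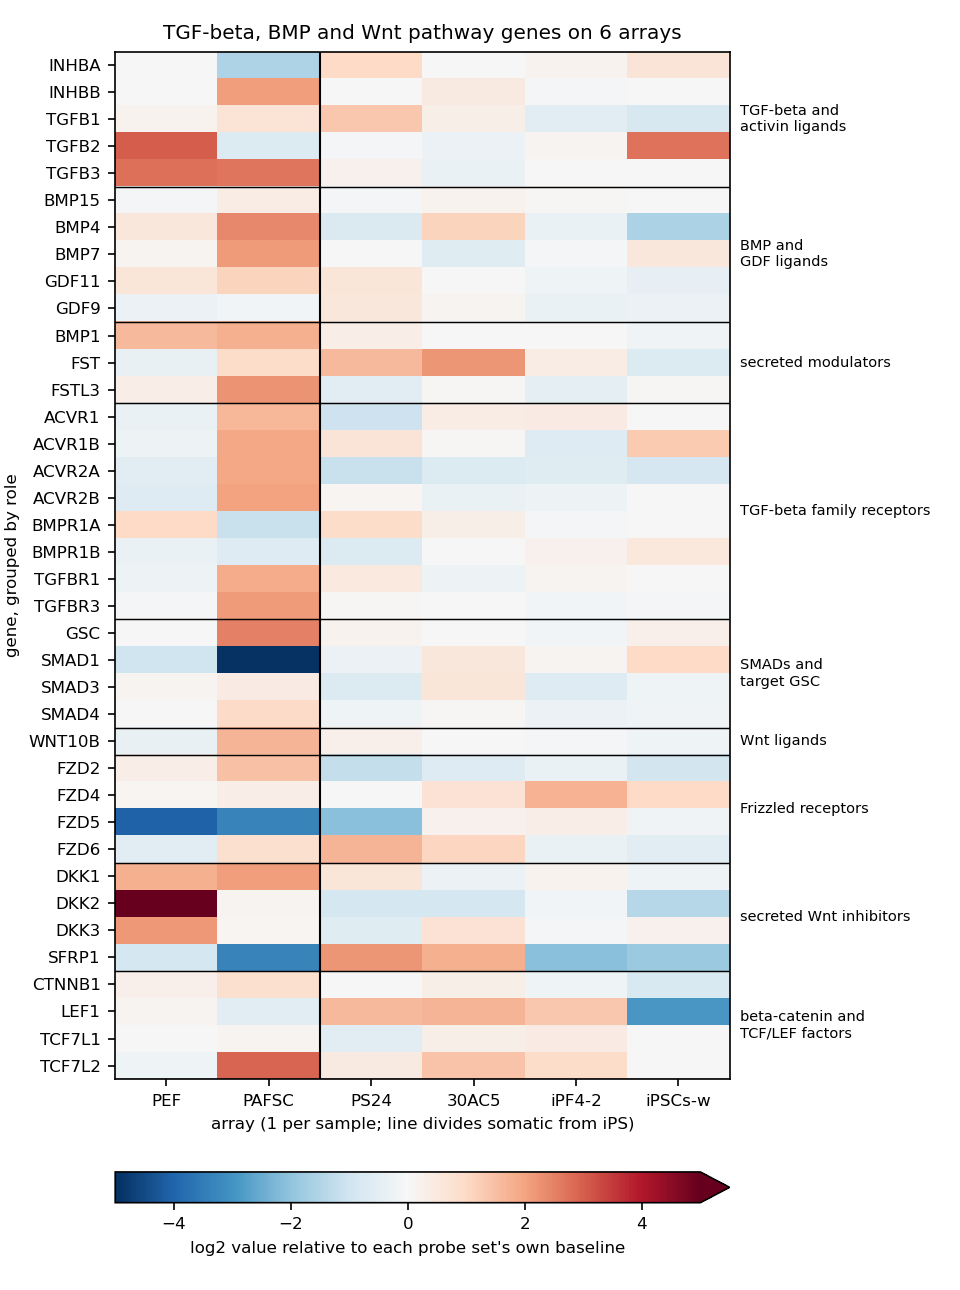
Values of the 38 genes (rows, grouped by role) on the 6 arrays (columns); colour gives the log2 value relative to each probe set's own baseline, red above and blue below, and the vertical line divides the somatic samples from the iPS lines. PAFSC is the highest of the 6 arrays for 20 genes, DKK2 is darkest in PEF at 5.63, and LEF1 stands out in iPSCs-w at -2.92.

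The first comparison set the 4 iPS lines against the somatic samples. TGFB3, the Wnt inhibitors DKK1 and DKK2, the BMP-activating protease BMP1 and the receptor gene FZD2 had lower values in every iPS line than in either somatic sample, while the Wnt receptor gene FZD5 and the BMP effector gene SMAD1 had higher ones. In all, the 4 iPS lines lay below both somatic samples for 8 of 38 genes (21.1%, against 10.3% of all 6765 genes), and above both for 3 (7.89%, against 15.6%). With all arrays limma called none of the 38 (0.025% of all probe sets were called; adjusted p at or above 0.119), and 8 had an unadjusted p under 0.05, against 13.7% of all probe sets. The median iPS minus somatic difference over the 38 genes was -0.66, beside -0.26 over all genes.

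The somatic arrays decided these calls. Against PEF alone, with PAFSC left out, limma called 2 of the 38 (0.567% of all probe sets), DKK2 and TGFB3, and the median difference over the genes became 0.09, beside 0.17 over all genes. Against PAFSC alone, with PEF left out, it called 19 (59.6% of all probe sets). In both of these fits the lone somatic sample is assumed to vary like the iPS lines. Without any 1 of the iPS lines it called 0. The counts of genes set apart also moved, as did those of all genes. With PEF left out 22 lay below (50% of all genes) and 6 above (33% of all genes). With PAFSC left out 11 lay below (18.8% of all genes) and 8 above (35.9% of all genes). With 30AC5 left out 12 lay below (12.7% of all genes), and with PS24 left out 5 lay above (18.5% of all genes). After quantile normalization 5 lay below (8% of all genes) and 1 above (12.5% of all genes). Centring each array on its median raised every iPS minus somatic difference by 0.30 and left 6 below (9.14% of all genes) and 2 above (16.9% of all genes). By sign, 27 of the 38 differences were negative as deposited, beside 57.0% of all genes. After centring 25 were negative, and the share of all genes was not computed. Against PEF alone 17 were negative, beside 36.4% of all genes.

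**Figure D2:**
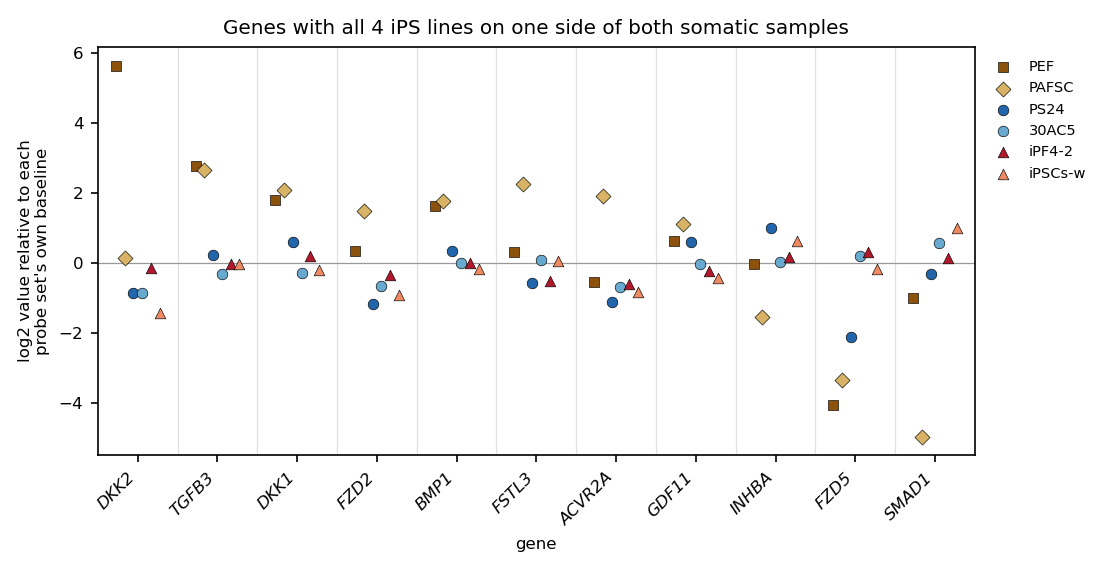
Values (log2, relative to each probe set's own baseline) of the 11 genes whose 4 iPS lines did not overlap with the somatic samples, ordered from the lowest to the highest iPS minus somatic difference; each symbol is 1 array. On the probe sets used, TGFB3, DKK1 and BMP1 have both somatic samples close together and above the iPS lines. For DKK2, ACVR2A, FSTL3 and SMAD1 the 2 somatic samples lie far apart.

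Among the TGF-beta and activin ligands, TGFB3, which encodes a TGF-beta isoform common in mesenchyme, was 2.76 in PEF and 2.66 in PAFSC, against -0.02 in iPF4-2, -0.01 in iPSCs-w, 0.23 in PS24 and -0.32 in 30AC5. The 2 somatic samples nearly coincided and lay more than 2 log2 units above every line. The difference was -2.74 (SE 0.45, limma adjusted p = 0.119); against PEF alone TGFB3 fell by 2.79 log2 units (SE 0.30, limma adjusted p = 0.0370). Its other probe set ran the same way with smaller values: 0.21 in PEF, 1.28 in PAFSC and -0.33 to 0.13 in the lines, and it was not called against PEF alone (-0.37, limma adjusted p = 0.688). INHBA, which encodes the subunit of activin A, was -0.02 in PEF, -1.55 in PAFSC, 0.19 in iPF4-2, 0.63 in iPSCs-w, 1.00 in PS24 and 0.02 in 30AC5. The 30AC5 line was almost level with PEF, and the difference of 1.24 (SE 0.59, limma adjusted p = 0.390) came to 0.48 without PAFSC. INHBB, the subunit of activin B, was 2.09 in PAFSC and between -0.06 and 0.43 on the other arrays.

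Of the BMP and GDF ligands, GDF11, which signals through activin receptors, was 0.62 in PEF and 1.11 in PAFSC, against -0.23 in iPF4-2, -0.42 in iPSCs-w, 0.60 in PS24 and -0.04 in 30AC5. PS24 and PEF were almost level, and the difference was -0.88 (SE 0.50, limma adjusted p = 0.430); on the gene's other probe set PS24 (0.38) lay above PEF (0.07). BMP4, a ligand of early mesoderm, was 0.55 in PEF, 2.40 in PAFSC, -0.32 in iPF4-2, -1.57 in iPSCs-w, -0.74 in PS24 and 1.11 in 30AC5. The 30AC5 line therefore lay between the 2 somatic samples and the other lines below both. BMP7 was 2.13 in PAFSC and -0.59 to 0.58 elsewhere. The oocyte growth factor genes BMP15 and GDF9 stayed within -0.32 and 0.56 on all 6 arrays.

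The secreted modulators of this family include a protease and the follistatins. BMP1, an astacin-type protease that also trims procollagens, was 1.61 in PEF and 1.77 in PAFSC, against -0.01 in iPF4-2, -0.16 in iPSCs-w, 0.34 in PS24 and 0.01 in 30AC5. The groups were apart by more than either spread, with a difference of -1.65 (SE 0.45, limma adjusted p = 0.253; 0.128 without PAFSC), and the other BMP1 probe set separated them too, with 1.11 in PEF, 3.66 in PAFSC and -1.26 to -0.01 in the lines. FSTL3, a follistatin-like antagonist of activin, was 0.33 in PEF and 2.26 in PAFSC, against -0.51 in iPF4-2, 0.06 in iPSCs-w, -0.58 in PS24 and 0.07 in 30AC5. Its difference of -1.53 (SE 0.63, limma adjusted p = 0.350) was -0.57 against PEF alone. The other FSTL3 probe set was higher in PEF, at 1.39, than in PAFSC, at 0.59, and differed by -1.57 against PEF alone (SE 0.75, limma adjusted p = 0.490). On it PS24 (0.57) and 30AC5 (0.54) lay just below PAFSC and above iPF4-2 (-0.98) and iPSCs-w (-0.85), so that it separated the marker classes, by 1.47, where the first did not.

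The 8 receptor genes were mostly set apart by PAFSC. ACVR2A, a type II activin receptor, was -0.55 in PEF and 1.92 in PAFSC, against -0.60 in iPF4-2, -0.84 in iPSCs-w, -1.11 in PS24 and -0.68 in 30AC5. The difference was -1.49 (SE 0.69, limma adjusted p = 0.381) with both somatic samples and -0.25 against PEF alone, and on the second ACVR2A probe set PEF lay within the range of the lines. The type I receptor gene ACVR1 was 1.66 in PAFSC, -0.32 in PEF, 0.40 in iPF4-2, -0.01 in iPSCs-w, -1.04 in PS24 and 0.35 in 30AC5, so that PEF lay inside the range of the lines. ACVR1B, the main type I receptor for activin and nodal, was -0.24 in PEF, 1.94 in PAFSC, -0.65 in iPF4-2, 1.31 in iPSCs-w, 0.66 in PS24 and 0.06 in 30AC5, again with PEF inside that range. ACVR2B, TGFBR1 (the type I TGF-beta receptor) and TGFBR3 (the co-receptor betaglycan) were 2.02, 1.87 and 2.14 in PAFSC. On the other arrays they were at most 0.503. The other TGFBR1 probe sets read -3.46 and 0.37 in PAFSC. Of the 8 receptors, 6 had a negative difference with both somatic samples and 2 against PEF alone.

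Among the SMADs, SMAD1 was -0.99 in PEF and -4.95 in PAFSC, against 0.13 in iPF4-2, 0.99 in iPSCs-w, -0.30 in PS24 and 0.58 in 30AC5. Every line lay above both somatic samples, but the somatic samples differed from each other by more than PEF did from any line. The difference was 3.32 (SE 0.99, limma adjusted p = 0.277) and 1.34 against PEF alone (SE 0.52, limma adjusted p = 0.401). SMAD4, the partner shared by both routes, was 0.95 in PAFSC and -0.29 to 0.07 elsewhere. SMAD3 was 0.14 in PEF, 0.42 in PAFSC, -0.63 in iPF4-2, -0.21 in iPSCs-w, -0.70 in PS24 and 0.61 in 30AC5, with no order between the groups. GSC, a homeobox gene induced by nodal in the embryo, was 2.54 in PAFSC and -0.12 to 0.24 on the other 5 arrays; its second probe set read 0.81 in PAFSC and 1.94 in iPSCs-w, so the 2 probe sets disagreed on which array was highest.

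On the Wnt side, WNT10B was the 1 ligand measured, at -0.38 in PEF, 1.70 in PAFSC and -0.23 to 0.24 in the iPS lines. The Frizzled receptor genes went different ways. FZD5 was -4.06 in PEF and -3.33 in PAFSC, against 0.32 in iPF4-2, -0.16 in iPSCs-w, -2.10 in PS24 and 0.20 in 30AC5. The somatic samples were close to each other and 3 of the lines lay more than 3 log2 units above them, with PS24 between. The difference was 3.26 (SE 0.75, limma adjusted p = 0.193) and 3.63 against PEF alone (SE 0.97, limma adjusted p = 0.245). FZD2, which also responds to non-canonical Wnts, was 0.34 in PEF and 1.48 in PAFSC, against -0.34 in iPF4-2, -0.90 in iPSCs-w, -1.18 in PS24 and -0.65 in 30AC5. Its difference was -1.68 (SE 0.53, limma adjusted p = 0.297), and against PEF alone -1.11 (SE 0.38, limma adjusted p = 0.344).

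The Dickkopf genes encode secreted proteins that bind the Wnt co-receptors LRP5 and LRP6, except for DKK3, which does not act on them in the same way. DKK1 was 1.80 in PEF and 2.08 in PAFSC, against 0.19 in iPF4-2, -0.21 in iPSCs-w, 0.60 in PS24 and -0.30 in 30AC5. Both somatic samples lay at least 1 log2 unit above every line, with a difference of -1.87 (SE 0.49, limma adjusted p = 0.236; 0.205 without PAFSC). DKK2 was 5.63 in PEF and 0.14 in PAFSC, against -0.14 in iPF4-2, -1.41 in iPSCs-w, -0.86 in PS24 and -0.87 in 30AC5. Its high value was in PEF alone: against PEF it fell by 6.46 log2 units (SE 0.50, limma adjusted p = 0.0203), with both somatic samples the difference was -3.71 (SE 1.27, limma adjusted p = 0.317), and without PEF it was -0.97. The second DKK2 probe set showed less, with 0.58 in PEF, -4.52 in PAFSC and -0.99 to -0.04 in the lines, and was not called against PEF alone (-0.89, limma adjusted p = 0.511); with both somatic samples its difference had the opposite sign, at 1.65. DKK3 was also highest in PEF, at 2.15, with 0.11 in PAFSC, -0.11 in iPF4-2, 0.20 in iPSCs-w, -0.59 in PS24 and 0.71 in 30AC5. PAFSC thus lay among the lines for DKK3 and just above them for DKK2.

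The fibroblast markers moved with these differences. Of the 14 measured, all had a lower mean in the iPS lines than in the somatic samples, as did 57% of all genes. Against PEF alone COL3A1 and PDGFRB were higher in the iPS lines, by 0.29 and 0.31, and the others lower. For 8 of them every line lay below both somatic samples, beside 10.3% of all genes. Limma called 1 (0.025% of all probe sets). The matrix genes LUM, POSTN and DCN were 3.77, 3.01 and 2.34 in iPF4-2 and between -1.05 and 0.23 in the other lines. Their part in the lower TGFB3, BMP1 and DKK values was not tested. In bulk RNA, fewer cells of a type and less RNA per cell cannot be told apart.

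The second comparison set the SSEA1-labelled lines (PS24 and 30AC5) against the lines that carry SSEA3 and SSEA4 without SSEA1 (iPF4-2 and iPSCs-w). The Wnt antagonist gene SFRP1, the activin antagonist gene FST, the receptor gene FZD6, the ligand gene TGFB1 and the nuclear factor gene LEF1 had higher values in both SSEA1-labelled lines, and TGFB2, FZD4 and BMPR1B had lower ones. Of the 38 genes, 12 were higher in both (31.6%, against 19.8% of all genes) and 3 lower in both (7.89%, against 22.2%). No gene passed the test: limma called 0 of the 38 and 0 of all probe sets (0%), and 3 of the 38 (SFRP1, FST and FZD6) had an unadjusted p under 0.05, against 2.84% of probe sets. After quantile normalization it called 1 of the 38 (0.375% of probe sets), which was SFRP1. The median difference was 0.08 over the 38 genes and -0.02 over all genes.

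**Figure D3:**
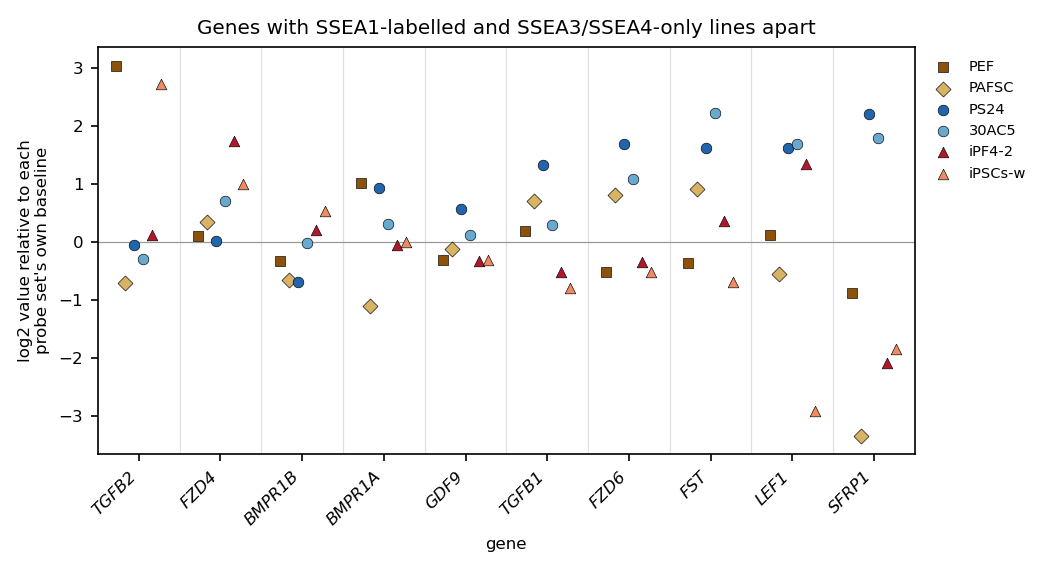
Values (log2, relative to each probe set's own baseline) of the 10 genes with the largest differences among those whose SSEA1-labelled lines (circles) and SSEA3/SSEA4-only lines (triangles) did not overlap, ordered by that difference; the somatic samples are shown as a square (PEF) and a diamond (PAFSC). For SFRP1 the classes lie at about 2 and -2, while for TGFB2 and LEF1 the single line iPSCs-w lies apart from the other 3.

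SFRP1, a secreted Frizzled-like protein that captures Wnts, gave the widest separation. It was 2.20 in PS24 and 1.79 in 30AC5, whereas iPF4-2 had -2.08 and iPSCs-w had -1.84, with -0.88 in PEF and -3.34 in PAFSC. The 2 lines of each class were close together, and the classes lay on opposite sides of PEF. The difference was 3.95 (SE 0.87, limma adjusted p = 0.558). With only the 4 iPS lines it was 3.95 (SE 0.29, limma adjusted p = 0.0514), and leaving out either somatic array gave this same fit. After quantile normalization it was 4.88 (SE 0.53, limma adjusted p = 0.0248). The second SFRP1 probe set gave 1.45 and 1.15 in the SSEA1-labelled lines against -1.73 and -1.93 in the others.

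FST, follistatin, which binds and neutralises activin, was 1.62 in PS24 and 2.21 in 30AC5, whereas iPF4-2 had 0.36 and iPSCs-w had -0.70, with -0.36 in PEF and 0.90 in PAFSC. Both SSEA1-labelled lines also lay above both somatic samples, and the second FST probe set gave the same order of classes, with 1.42 and 2.73 against 0.72 and -0.42. The difference was 2.08 (SE 0.74, limma adjusted p = 1.00), with a limma adjusted p of 0.232 in the fit of only the 4 iPS lines. FZD6, a Frizzled receptor linked to planar polarity, was 1.68 in PS24 and 1.07 in 30AC5, whereas iPF4-2 had -0.34 and iPSCs-w had -0.52, with -0.52 in PEF and 0.82 in PAFSC. Its difference was 1.81 (SE 0.70, limma adjusted p = 1.00), with a limma adjusted p of 0.157 in the fit of only the 4 iPS lines. Its second probe set put the classes at 1.97 and 1.59 against -0.71 and -1.14.

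TGFB1, the most widely expressed TGF-beta isoform, was 1.33 in PS24 and 0.29 in 30AC5, whereas iPF4-2 had -0.52 and iPSCs-w had -0.80, with 0.19 in PEF and 0.70 in PAFSC. The 30AC5 line lay close to PEF and PS24 above both somatic samples, for a difference of 1.47 (SE 0.67, limma adjusted p = 1.00). The class difference was 0.95 with PS24 left out, and the other TGFB1 probe set kept the order of the lines, with 0.82 and 0.15 against -0.51 and -1.14. GDF9 was 0.56 in PS24 and 0.12 in 30AC5, whereas both other lines and PEF lay between -0.32 and -0.31, for a class difference of 0.66 (SE 0.60). BMPR1A, a type I BMP receptor, was 0.92 in PS24 and 0.30 in 30AC5, with the other 2 lines at -0.05 and 0.00 and a class difference of 0.64 (SE 0.82). The differences of GDF9 and BMPR1A were about the size of their standard errors or less, and were 0.44 and 0.33 with PS24 left out.

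TGFB2, an isoform with its own role in development, showed 1 line rather than a class. It was 0.12 in iPF4-2, 2.72 in iPSCs-w, -0.05 in PS24 and -0.30 in 30AC5, with 3.04 in PEF and -0.70 in PAFSC. The iPSCs-w line lay near PEF and the other 3 lay near each other, so the class difference of -1.60 (SE 1.30, limma adjusted p = 1.00) was -0.30 without iPSCs-w. All 4 TGFB2 probe sets had PEF above PS24, 30AC5 and iPF4-2 and had iPSCs-w as the highest line, at 0.42 to 2.72, and on the 3 not used here the classes overlapped. LEF1, the lymphoid enhancer factor that carries Wnt signals with beta-catenin, was 1.35 in iPF4-2, -2.92 in iPSCs-w, 1.62 in PS24 and 1.69 in 30AC5, with 0.13 in PEF and -0.56 in PAFSC. Again 3 lines were close together, above both somatic samples, and iPSCs-w lay apart, below them; LEF1 has 1 probe set. Its class difference was 2.44 (SE 1.25, limma adjusted p = 1.00) and 0.30 without iPSCs-w.

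FZD4, a receptor for Wnts and norrin, was 0.01 in PS24 and 0.71 in 30AC5, whereas iPF4-2 had 1.73 and iPSCs-w had 1.00, with 0.11 in PEF and 0.34 in PAFSC. On its second probe set iPSCs-w (0.57) lay below both SSEA1-labelled lines (1.17 and 0.87), so the classes overlapped there. BMPR1B, a type I BMP receptor, was -0.70 in PS24 and -0.03 in 30AC5, whereas iPF4-2 had 0.20 and iPSCs-w had 0.53, with -0.33 in PEF and -0.66 in PAFSC. Its other 2 probe sets put 30AC5 highest of the lines, at 0.25 and 0.63. The differences of -1.01 for FZD4 (SE 0.65) and -0.73 for BMPR1B (SE 0.63) did not pass (limma adjusted p = 1.00 for both). FZD4 came to -0.64 without iPF4-2 and -0.66 without PS24, and BMPR1B to -0.39 without PS24.

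On the probe sets used, the downstream Wnt factors other than LEF1 varied less. CTNNB1, which encodes beta-catenin, was 0.26 in PEF, 0.79 in PAFSC, -0.21 in iPF4-2, -0.74 in iPSCs-w, 0.03 in PS24 and 0.28 in 30AC5. The other CTNNB1 probe sets disagreed in the lines. A single probe set also had the SSEA1-labelled lines above the others, at 0.40 and 0.26 against -0.01 and -0.42. On the rest the classes overlapped, and iPSCs-w was the highest line on some, at 0.93 and 0.54. TCF7L2 was -0.23 in PEF, 2.91 in PAFSC, 0.91 in iPF4-2, -0.02 in iPSCs-w, 0.43 in PS24 and 1.43 in 30AC5, and all 4 lines lay between the somatic samples. TCF7L1, a TCF that mainly represses in pluripotent cells, stayed between -0.53 and 0.40 on all arrays. For both LEF1 and TCF7L2, 30AC5 was the highest line and iPSCs-w the lowest.

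Epithelial markers and pluripotency markers moved with the second comparison in the opposite direction to SFRP1 and FST. The median of 10 measured epithelial markers was 2.09 in iPF4-2, 2.71 in iPSCs-w, -0.10 in PS24 and 0.83 in 30AC5. Of the 10, 7 were lower in both SSEA1-labelled lines, beside 22.2% of all genes. All 4 pluripotency markers were lower in both, among them POU5F1, at 0.07 and -0.07 against 3.68 and 3.61. PS24, 1 of the 2 SSEA1-labelled lines, also had the low 5' signal given above. The part of these in the differences was not tested.

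The last comparison was between the 2 somatic samples, with 1 array each and so no test. PAFSC exceeded PEF by over 1 log2 unit for 16 of the 38 genes (42.9% of all genes did) and lay below it by as much for 7 (27.1% of all genes). These shares of 42.1% and 18.4% are near or below those of all genes, and after quantile normalization the counts were 5 (17.9% of all genes) and 4 (18% of all genes). The 7 lower genes included TGFB2, at 3.04 in PEF and -0.70 in PAFSC, and BMPR1A, at 1.01 and -1.11. On the probe sets used, TGFB3, BMP1 and DKK1 differed by less than 0.30 between the 2 samples. The other TGFB3 probe set was 0.21 in PEF and 1.28 in PAFSC, and the other BMP1 probe set was 1.11 and 3.66.

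**Figure D4:**
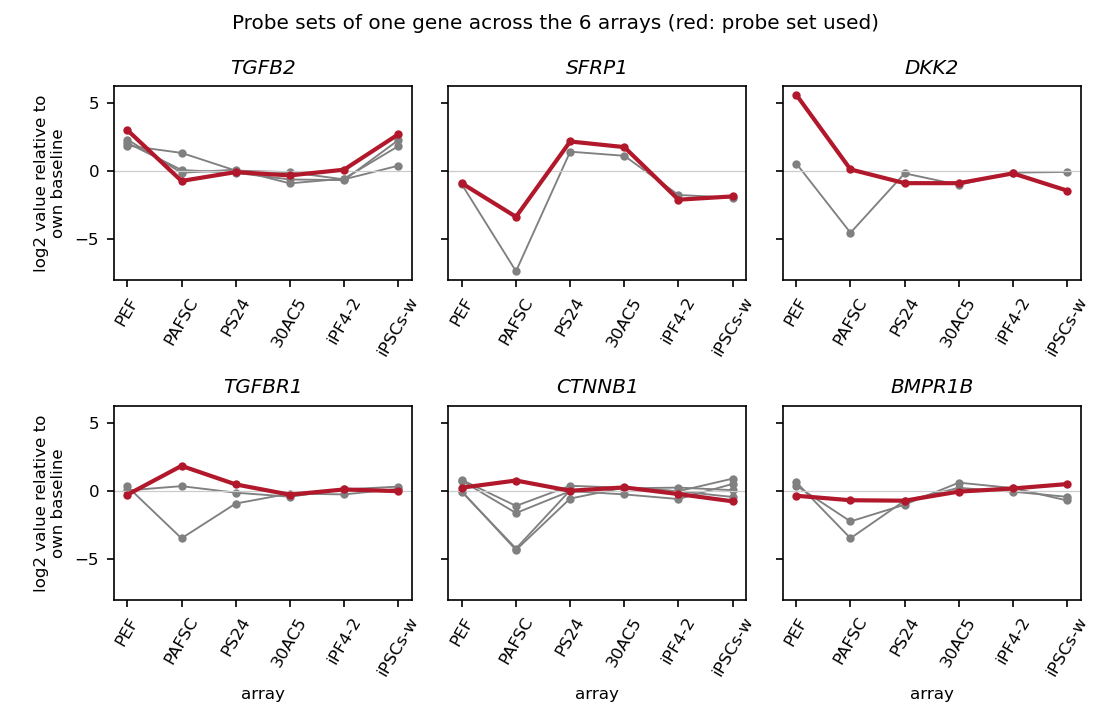
Values (log2, relative to each probe set's own baseline; vertical axis) of every probe set of 6 genes on the 6 arrays (horizontal axis); lines join the values of 1 probe set and the red line is the one used. The probe sets of SFRP1 share their shape in the iPS lines. Those of TGFB2 all have iPSCs-w as the highest line, but at values from 0.42 to 2.72. The probe sets of TGFBR1, CTNNB1 and BMPR1B spread widely in PAFSC, from -3.46 to 1.87 for TGFBR1.

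How far the probe sets of a gene agreed depended on the array. Over the 19 genes with several probe sets, the median gap between the highest and the lowest was 1.73 in PAFSC and 0.34 to 0.50 on the other arrays, and it was over 2 log2 units for 8 genes in PAFSC, 2 in PEF and 1 in iPSCs-w. Over all 2261 genes with several probe sets the median gap was 1.72 in PAFSC and 0.34 to 0.56 on the others. TGFBR1 ran from -3.46 to 1.87 in PAFSC, CTNNB1 from -4.32 to 0.79, and DKK2 from -4.52 to 0.14. A direction for these genes in PAFSC therefore depends on the probe set. The choice by highest mean favours probe sets that are high in PAFSC: chosen on the other 5 arrays, 8 of the 38 genes would be read by another probe set. PAFSC was the highest array for 20 of the 38 genes, which is 52.6%, beside 47.2% of all genes. Endothelial markers, which have no labelled source in these samples, had a median of 2.07 in PAFSC as well (6 measured), against -0.25 to 0.31 on the other arrays; the part of the array in these high values was not tested.

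Other genes of the pathways, from a list of 70 inhibitors, co-receptors, intracellular parts and targets, were measured for 14. Limma called 0 of the 14 in either comparison, beside 0.025% and 0% of all probe sets. An unadjusted limma p under 0.05 was met by 3 and 1 of the 14, beside 13.7% and 2.84% of all probe sets. In the iPS against somatic comparison 4 lay below both somatic samples in every line (10.3% of all genes) and 0 above (15.6% of all genes). They were ENG, the TGF-beta co-receptor endoglin, and ID2, ID3 and ID4, inhibitors of bHLH factors that BMP signals induce. ID3 was 1.65 in PEF and 1.14 in PAFSC, against -1.39 in iPF4-2, -2.63 in iPSCs-w, 0.41 in PS24 and -0.10 in 30AC5. All lines lay below both somatic samples and the SSEA1-labelled lines above the others, with differences of -2.32 (SE 0.84, limma adjusted p = 0.334) and 2.16 (SE 0.70, limma adjusted p = 1.00). ID2 was 1.61 in PEF and 2.23 in PAFSC, against 0.98, 0.63, 0.00 and 0.00 in PS24, 30AC5, iPF4-2 and iPSCs-w, the same order of classes. ID1, the fourth of these, was 1.26 in PEF but -1.11 in PAFSC, and the lines lay between them. MYC, a growth factor-responsive gene that Wnt signals can induce, was 5.55 in PEF, -0.14 in PAFSC and -1.04 to 0.29 in the lines. Against PEF alone it fell by 5.89 log2 units. With both somatic samples its difference was -3.05 (SE 1.33, limma adjusted p = 0.366). Between the marker classes 5 of the 14 were higher and 2 lower in both SSEA1-labelled lines, beside 19.8% and 22.2% of all genes. WLS, the carrier that Wnts need for secretion, was -0.43 in PS24 and 0.33 in 30AC5, whereas iPF4-2 had -1.04 and iPSCs-w had -3.27, with 1.02 in PEF and -3.89 in PAFSC; the difference was 2.10 (SE 1.51, limma adjusted p = 1.00).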

How the data were processed

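The deposited value table holds the authors' log2 values for 24123 probe sets on 6 arrays, made from biotin-labelled cRNA per the labels' protocols. How they corrected background, summarized and scaled the arrays, with which software, and what the zero stands for is not given in the sources used here. All 124 control probe sets were left out. The platform annotation gave 1 symbol to 10069 of the other 23999, several to 198 and none to 13732; the 38 genes all matched the RefSeq table by gene ID under the same symbol, and 1 probe set that names BMP7 with another gene was not used.

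The two-sided tests came from lmFit and eBayes of limma 3.58.1 (R 4.3.3), with Benjamini-Hochberg adjustment across the 23999 and a threshold of 0.05. The fits covered the whole table with 4 (iPS against somatic) or 3 (marker classes) residual degrees of freedom. They were also run on simulated data in which all arrays had the same spread. That simulation therefore does not cover the wider spread of PAFSC. Genes were called apart when the groups' values did not overlap; shares of all genes use 1 probe set per gene, chosen alike. PEF and PAFSC were compared at a log2 difference of 1.

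Named with a test were up to 12 genes (iPS against somatic) and 10 (marker classes) with the largest differences among those apart, and without one the 5 others with the widest range over the iPS lines. The genes, lists and rules were chosen with earlier results of these data known. Alternatives were quantile normalization, median centring, leaving out the lowest 40% of probe sets by mean, eBayes with trend and robust shrinkage, averaging the probe sets of each gene, 4 classes, only the 4 iPS lines and leaving out each array; the choice of probe set without PAFSC, and all those for PEF against PAFSC, were added after seeing the data. The number of arrays limits the precision.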

Additional observations from a re-analysis of the deposited data

Results flagged for a closer look

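In 2 of the 38 genes 1 iPS line lay far from the other 3, by a gap over Dixon's critical value for 4 samples. LEF1 was -2.92 in iPSCs-w, with a gap of 0.926 of the range. TGFB2 was 2.72 in the same line, with a gap of 0.860 of the range. If values are normally distributed, a gap over that critical value is met by chance in about 1 of 20 groups, and 2 of 38 is near that rate.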

How the results depend on the processing

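No named difference changed its sign under any alternative run, but the alternatives did not take each other probe set alone. Another DKK2 probe set gave 1.65 for iPS minus somatic. For the marker classes the other BMPR1B probe sets gave -0.0018 and 0.04, and a TGFB2 probe set gave 0.09. The remaining other probe sets of the named genes kept the sign. Across 266 recomputed gene differences 254 kept their side of the threshold and 12 passed it, 11 of them with PEF or PAFSC left out and 1 (SFRP1, 4.88) after quantile normalization. For iPS against somatic, the 0 called genes became 0 to 19 with 1 array left out. The genes below both somatic samples (8) were 5 after quantile normalization, 5 with probe sets averaged per gene, and 8 to 22 with 1 array left out. Those above (3) were 1 after quantile normalization, 1 with the lowest 40% left out, which removes 8 of the 38 genes, FZD5 and SMAD1 among them, and 3 to 8 with 1 array left out. The same filter removed SFRP1, FZD2, ACVR2A, BMPR1B, GDF9 and SMAD3, so it gave no values for them. For the marker classes, called genes went from 0 to 1 after quantile normalization and stayed at 0 with any 1 array left out. Genes higher in both SSEA1-labelled lines (12) were 12 to 20 with 1 array left out, where fewer lines have to agree. Lower ones (3) were 3 to 13. Shares of all genes were not computed for these marker-class counts, nor for averaged probe sets or the lowest 40% left out. Those counts are therefore not read as a result about the 38 genes. The counts for PAFSC above and below PEF went from 16 and 7 to 5 and 4 after quantile normalization. The cause of the changes under quantile normalization was not tested. No paired analysis was possible because the labels give no replicate numbers that groups share. Signal over background could not be read from these relative values, so genes near the detection limit are not known.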

Other observations

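For 4446 of 23999 probe sets (18.5%) the values of 2 neighbouring arrays were equal in size and opposite in sign, within 0.0001, so that the zero lay midway between them. Among the 38 genes this held for 9, for example DKK2 (0.14 in PAFSC and -0.14 in iPF4-2) and FZD2 (0.34 in PEF and -0.34 in iPF4-2). Counting the arrays from the lowest value, the pair lay between the third and the fourth array for 839 probe sets, between the second and the third for 1353 and between the fourth and the fifth for 1861.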
